A study of Mus musculus with 6 samples.

Results

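The genes described are 10 regulators and markers of the epithelial-mesenchymal transition (EMT): the transcription factor genes Snai1, Snai2, Twist1, Zeb1 and Zeb2, the mesenchymal intermediate filament gene Vim, and the epithelial genes Grhl2, Esrp1, Ovol1 and Epcam. They were matched by mouse gene symbol to the Ensembl identifiers, and all 10 were found among the 41388 genes counted. The libraries came from KP2 cells, a pancreatic cancer line from a KPC mouse on the C57BL/6J background, cultured at low passage in DMEM with serum. The groups, with 2 libraries in each of the 3 groups, were IRAK4 KO + rescue (the knockout cells with IRAK4 restored, called the rescue), IRAK4 KO (cells infected with plentiCRISPR vectors carrying guide RNAs against IRAK4) and wild type. The labels say nothing of how IRAK4 was restored, of a control vector in wild type, or of whether the KO is a clone or a pool. All groups derive from 1 tumour line. No label ties the replicates to separate cultures, and the spread behind each p-value is that between libraries, which may be technical.

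EMT is the programme in which epithelial cells lose cell-cell junctions and apical-basal polarity and take on a motile, spindle-shaped form. SNAI, ZEB and TWIST factors drive it, and SNAI and ZEB proteins bind E-box sequences in the promoters of epithelial genes such as Cdh1 and Epcam and repress them. GRHL2, OVOL1 and the splicing regulator ESRP1 hold the epithelial side, with GRHL2 and ZEB1 repressing each other. In pancreatic cancer the programme accompanies invasion and resistance to treatment, and tumour cells often carry features of both states. IRAK4, the kinase targeted here, acts below Toll-like receptors and activates NF-kB, a pathway known to induce Snai1, Twist1 and Zeb factors in several cell types.

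The counts totalled 7605328 to 11505983 per library. Levels are given as normalised CPM, the count scaled to a common library size after TMM scaling. Irak4, the targeted gene, stood at 492 and 211 CPM in the rescue, 20.4 and 21.8 CPM in the KO and 37.9 and 37.6 CPM in wild type, and its counts cannot separate the endogenous transcript from a rescue construct. Its log2 difference was -0.84 between KO and wild type (SE 0.33, adjusted p = 0.0573), which missed the threshold, and 4.06 between rescue and KO (adjusted p = 2.3e-04). Between rescue and wild type it was 3.22 (SE 0.30, adjusted p = 2.1e-05), 9.32-fold. The rescue thus held Irak4 counts far above the wild-type level, not at it. A CRISPR edit need not remove the transcript, so the count does not test the loss of the protein. Markers of pancreatic duct cells were present, with 9 of 11 at 1 CPM or more in at least 1 library and a summed level of 6185 to 6982 CPM in the rescue, 5027 to 5276 in the KO and 10624 to 10736 in wild type. Of 10 fibroblast markers 7 stayed under 1 CPM in every library, and Dcn and Lum had 0 counts throughout. The fibroblast sum was 18.5 to 24.2 CPM in the rescue, 9.63 to 14.9 in the KO and 14.0 to 14.7 in wild type. Of 8 immune markers 7 stayed under 1 CPM, with a sum of 4.39 to 4.82 CPM in the rescue, 4.35 to 4.43 in the KO and 4.04 to 4.49 in wild type. Of 9 acinar and endocrine markers 8 stayed under 1 CPM, with a sum of 1.27 to 1.73 CPM in the rescue, 1.84 to 2.29 in the KO and 1.07 to 1.37 in wild type, and the elastase gene Cela1 rose in the KO by 1.68 on the log2 scale. Of 6 endothelial markers 4 stayed under 1 CPM. Their sum was 14.9 to 38.2 CPM in the rescue, 16.0 to 30.9 in the KO and 4.63 to 5.47 in wild type, most of it in the rescue and KO from Cdh5, which rose in the KO by 2.77 on the log2 scale while Kdr fell by 3.88. Cela1 had 5 counts in each wild-type library and Kdr 1 count in each KO library, so both folds rest on few counts. The part of these marker differences in the results below was not tested.

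The wild-type cells expressed most of the mesenchymal members and little of the epithelial ones. Vim and the genes Zeb1, Zeb2, Snai2 and Snai1 were expressed, Grhl2 and Ovol1 sat near 1 CPM, and Twist1, Esrp1 and Epcam were absent or at a single count. In the KO, 4 of the 7 genes that passed the filter on low counts were lower than in wild type, namely Snai1, Zeb1, Zeb2 and Vim, and 0 were higher. Of all 12339 genes tested 46.8% were called in that comparison, 23.5% lower and 23.2% higher, at an adjusted p under 0.05 in edgeR's quasi-likelihood test with Benjamini-Hochberg adjustment. In the rescue 2 of the 7, Zeb2 and Vim, were higher than in the KO and 0 lower, against 14.2% of all tested genes called, 8.35% higher and 5.88% lower. Against wild type 1 of the 7, Zeb1, was lower in the rescue and 0 were higher, where 22.2% of all genes were called, 12% lower and 10.2% higher. In bulk libraries fewer cells with a transcript and less of it per cell cannot be told apart. With 2 libraries in a group, groups can separate without a true difference. The share of all genes whose groups do not overlap was not counted, so overlap is given below as description only. Fold changes below are edgeR's fitted log2 values with their standard error (SE).

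**Figure D1:**
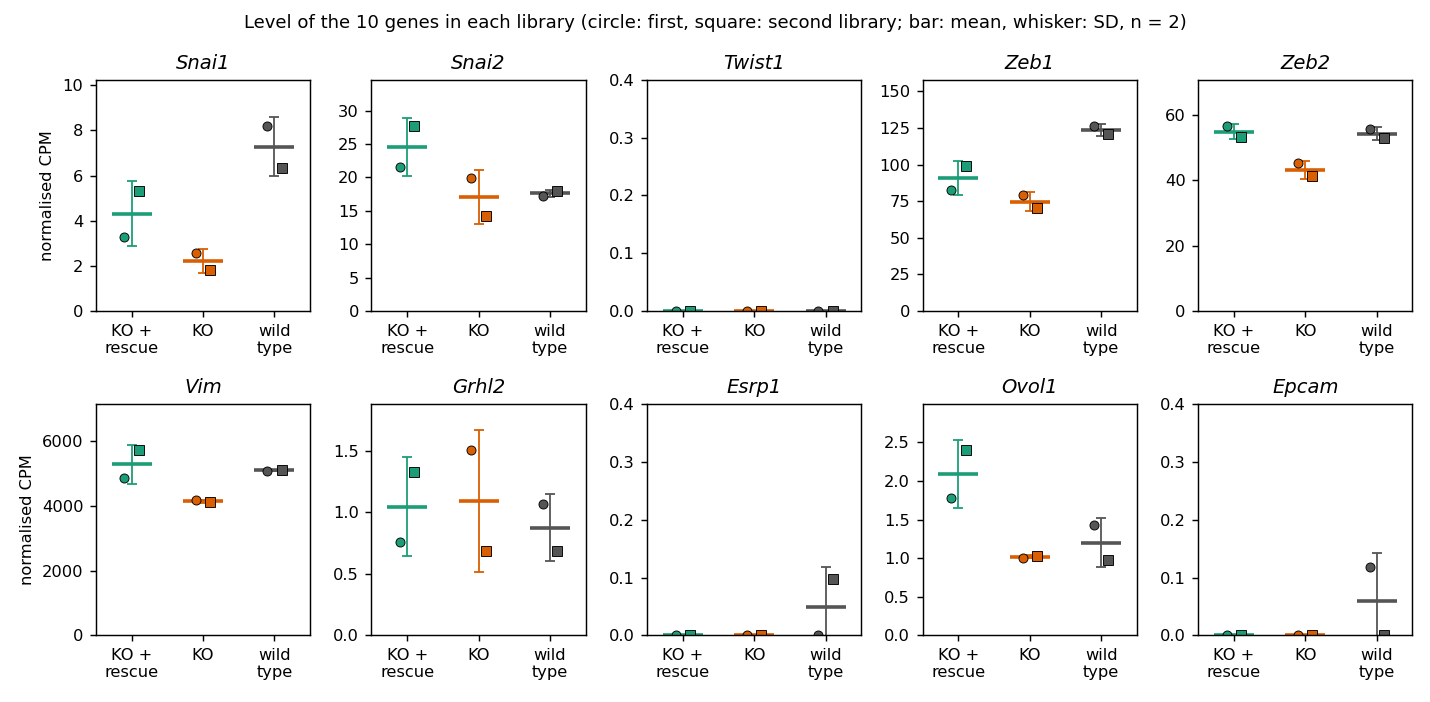
Normalised CPM (y axis, linear, starting at 0) of the 10 genes in the KO + rescue, KO and wild-type libraries. Circles and squares are the first and second library of a group, bars the mean and whiskers the SD with n = 2. Snai1, Zeb1, Zeb2 and Vim have each KO point below each wild-type point, and Twist1 is at 0 throughout. The share of all genes that separate in this way was not counted.

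Promoter sequences are given for 3 of the genes, Snai1, Vim and Epcam. Snai1 fell in the KO, Vim fell less and Epcam was at the limit of detection. A link of these levels to the sequences was not tested. The E-box letters lie in the Snai1 and Epcam sequences and not in the Vim sequence. Each is the 250 bases before the start site in RefSeq on GRCm38.p6, on the plus strand, 5′ to 3′. The capitals mark the E-box CAGGTG or its reverse complement CACCTG. The Snai1 window is chr2:167537945-167538194, the Vim window chr2:13574061-13574310 and the Epcam window chr17:87635729-87635978.
Snai1: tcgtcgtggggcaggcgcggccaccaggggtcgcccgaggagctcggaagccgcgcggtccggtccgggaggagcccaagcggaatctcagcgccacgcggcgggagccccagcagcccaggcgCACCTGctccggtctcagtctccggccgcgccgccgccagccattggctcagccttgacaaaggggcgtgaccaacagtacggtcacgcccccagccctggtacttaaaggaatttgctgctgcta
Vim: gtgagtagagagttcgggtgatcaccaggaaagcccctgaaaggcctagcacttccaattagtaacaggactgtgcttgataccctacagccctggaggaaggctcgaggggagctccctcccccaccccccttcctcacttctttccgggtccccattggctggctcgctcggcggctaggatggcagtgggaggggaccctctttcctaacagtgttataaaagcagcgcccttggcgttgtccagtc
Epcam: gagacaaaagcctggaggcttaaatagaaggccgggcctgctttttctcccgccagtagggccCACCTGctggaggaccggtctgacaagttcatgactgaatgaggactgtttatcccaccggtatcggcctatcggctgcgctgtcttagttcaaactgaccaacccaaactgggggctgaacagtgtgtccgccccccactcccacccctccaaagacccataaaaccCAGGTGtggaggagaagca
Both strands were searched over windows that run on to 50 bases after the start, and promoters were given for 5 of the 10 genes (Snai1, Twist1, Zeb2, Vim and Epcam). The E-box letters occurred once in Snai1, 126 bases before the start, and at 2 places in Epcam, 187 and 19 bases before it. They did not occur in the Vim and Twist1 windows or in any of the 4 Zeb2 windows. Of all 32851 promoters, 20.2% hold the E-box letters. The letters CCGGTT, the core of the GRHL motif, or their reverse complement AACCGG were in none of these windows, against 6.83% of all promoters. A match of letters is not evidence that a factor binds there.

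Snai1 encodes SNAIL, a zinc finger repressor of Cdh1 (ENSMUSG00000042821, GRCm38 chromosome 2, 167538195 to 167542814, 3 exons). It had 26 and 40 counts in the rescue, 31 and 16 in the KO, and 69 and 65 in wild type. Normalised, these were 3.30 and 5.33 CPM in the rescue, 2.59 and 1.83 CPM in the KO, and 8.19 and 6.35 CPM in wild type, and no group overlapped another. The KO was 3.18-fold lower than wild type, with a log2 fold change of -1.67 (SE 0.30, adjusted p = 8.0e-04). This was the lowest fold change among the 7 tested genes, and it passed in every alternative fit, at -1.98 to -1.48 with 1 library left out. The rescue stood between the other groups. Its log2 fold change was 0.92 over the KO (SE 0.33, adjusted p = 0.0844) and -0.75 over wild type (SE 0.28, adjusted p = 0.078), and neither passed the test. Without a filter on low counts both differences passed (adjusted p = 0.0175 and 0.0176), as did that from the KO when the first rescue library was left out (adjusted p = 0.011) and that from wild type when the second was (adjusted p = 0.0157).

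Snai2 encodes SLUG, the paralogue of SNAIL (ENSMUSG00000022676, chromosome 16, 14705852 to 14709395, 3 exons). It had 21.6 and 27.7 CPM in the rescue, 19.9 and 14.2 CPM in the KO, and 17.2 and 18.0 CPM in wild type. Both wild-type libraries lay between the 2 KO libraries, and both rescue libraries lay above all the others. The KO differed from wild type by -0.03 (SE 0.18, adjusted p = 0.905) on the log2 scale, a sign that turned without the second wild-type or the second KO library. The rescue was at 0.51 over the KO (SE 0.17, adjusted p = 0.072) and 0.48 over wild type (SE 0.18, adjusted p = 0.0727). Without a filter on low counts both passed (adjusted p = 0.0115 and 0.0148). Without the first rescue library they passed at 0.68 (adjusted p = 0.00395) and 0.65 (adjusted p = 0.00903), and the first also passed without the first KO library (adjusted p = 0.0461). Scaled per kilobase of listed exon length (RPKM), Snai2 exceeded Snai1 in every library. The ratio of Snai2 to Snai1 RPKM was 5.22 and 4.15 in the rescue, 6.13 and 6.19 in the KO, and 1.68 and 2.26 in wild type. The 3 groups did not overlap in this ratio, which was highest in the KO.

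Zeb1 encodes a zinc finger and homeodomain repressor of epithelial genes (ENSMUSG00000024238, chromosome 18, 5591860 to 5775467, 15 exons). It had 82.8 and 98.8 CPM in the rescue, 79.2 and 70.1 CPM in the KO, and 126 and 121 CPM in wild type. The groups did not overlap, and both KO libraries were the lowest. The KO was 1.65-fold lower than wild type, at a log2 value of -0.72 (SE 0.10, adjusted p = 1.9e-04), a call that held in every alternative fit. The rescue was lower than wild type by a log2 fold change of -0.44 (SE 0.10, adjusted p = 0.0102). That call was lost without the first wild-type library (adjusted p = 0.099) or the second (adjusted p = 0.0546). Against the KO the rescue was at 0.28 (SE 0.10, adjusted p = 0.0976), which passed only without the first rescue library (adjusted p = 0.00663). The antisense transcript Gm10125 shares 198 exon bases with Zeb1 and had 2 to 10 counts per library.

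Zeb2 is the paralogue of Zeb1 (ENSMUSG00000026872, chromosome 2, 44983634 to 45117395, minus strand, 16 exons). It had 56.7 and 53.3 CPM in the rescue, 45.2 and 41.4 CPM in the KO, and 55.7 and 52.9 CPM in wild type. Both KO libraries lay below all the others, while the rescue and wild-type libraries overlapped. Zeb2 fell in the KO by 0.32 on the log2 scale (SE 0.09, adjusted p = 0.0154), 1.25-fold. It rose in the rescue over the KO by 0.34 (SE 0.10, adjusted p = 0.0364), and the rescue differed from wild type by 0.02 (SE 0.09, adjusted p = 0.908). The KO call was lost in DESeq2 (adjusted p = 0.0605) and without the first wild-type (adjusted p = 0.113), second wild-type (adjusted p = 0.0509) or second KO library (adjusted p = 0.117), while the log2 value with 1 library left out ran from -0.40 to -0.26. The rescue call was lost in DESeq2 (adjusted p = 0.124), with a replicate block (adjusted p = 0.0596) and with only the 2 groups compared (adjusted p = 0.0679). It was also lost without any 1 library other than the second rescue library. The log2 value of that comparison with 1 library left out ran from 0.28 to 0.41. The antisense gene Zeb2os shares 458 exon bases with Zeb2 and had at most 2 counts in a library. Per kilobase, Zeb1 exceeded Zeb2 in every library, with RPKM ratios of 2.84 and 3.61 in the rescue, 3.41 and 3.30 in the KO, and 4.41 and 4.44 in wild type. The rescue and KO overlapped in this ratio and both lay below wild type. RPKM divides by the length of all listed exons, 19658 bases for Zeb2 and 10112 for Zeb1, so the ratios depend on which isoforms the cells make.

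Twist1 encodes a basic helix-loop-helix EMT factor (ENSMUSG00000035799, chromosome 12, 33957671 to 33959817, 2 exons). It had 0 counts in all 6 libraries. A count of 0 allows up to 3 counts, or 0.380 and 0.400 CPM in the rescue libraries, 0.251 and 0.344 CPM in the KO and 0.356 and 0.293 CPM in wild type, for counting error only. Its paralogue Twist2 was expressed, at 19.4 ± 0.338 CPM in the rescue, 23.4 ± 1.03 in the KO and 21.3 ± 0.783 in wild type (SD, n = 2). Its log2 difference between KO and wild type was 0.14 (SE 0.12, adjusted p = 0.371).

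**Figure D2:**
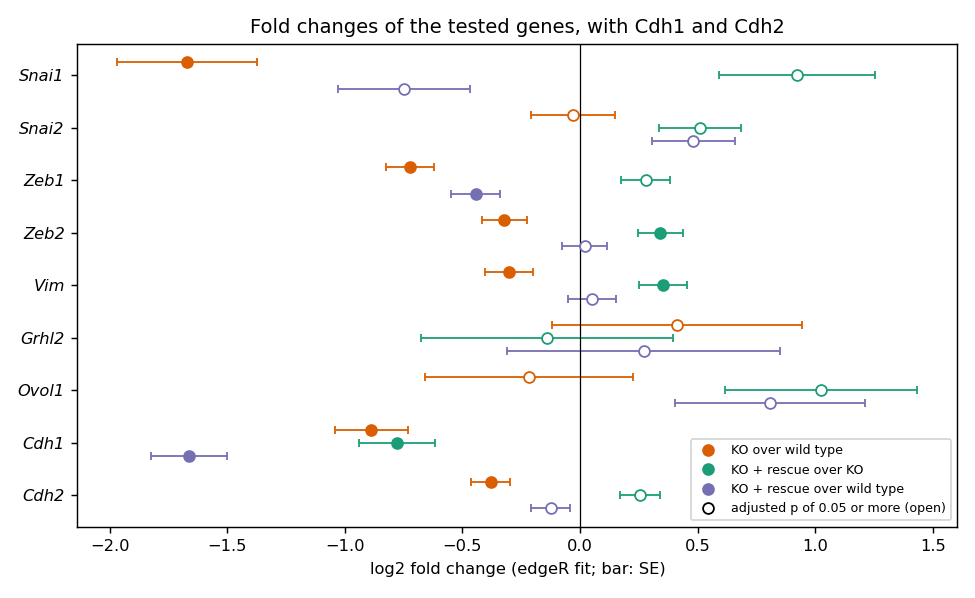
Fitted log2 fold changes (x axis) with SE bars for the 7 tested genes and the cadherin genes Cdh1 and Cdh2, in 3 comparisons marked by colour; filled points passed an adjusted p of 0.05. Snai1, Zeb1, Zeb2, Vim, Cdh1 and Cdh2 all lie left of 0 for KO over wild type, and Cdh1 lies further left for KO + rescue over wild type, at -1.66.

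Vim encodes vimentin, the intermediate filament protein of mesenchymal cells (ENSMUSG00000026728, chromosome 2, 13573927 to 13582826, 8 exons). It took 0.430% to 0.563% of the counts of a library and ranked 6th to 10th of all genes by RPKM. It had 4841 and 5703 CPM in the rescue, 4159 and 4104 CPM in the KO, and 5077 and 5105 CPM in wild type. Both KO libraries were lower than all others, and wild type lay between the 2 rescue libraries. Vim fell in the KO by 0.30 on the log2 scale (SE 0.10, adjusted p = 0.0286), 1.23-fold, and rose in the rescue over the KO by 0.35 (SE 0.10, adjusted p = 0.0397). The rescue differed from wild type by 0.05 (SE 0.10, adjusted p = 0.768). Leaving out any 1 wild-type or KO library ended the KO call (adjusted p from 0.079 to 0.118), at log2 values from -0.32 to -0.29. The rescue call was lost with a replicate block (adjusted p = 0.0658) and with only the 2 groups compared (adjusted p = 0.0826). It was also lost without any 1 library other than the first rescue library. The log2 value with 1 library left out ran from 0.23 to 0.46.

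Among the filaments and linkers that work with vimentin, Nes, Dst and Pak1 were lower in the KO than in wild type and Lmnb1 higher. Of 12 tested partners 4 were higher and 5 lower, where 23.2% of all tested genes were higher and 23.5% lower, so calls in both directions are not particular to this list. Without the second KO library 2 were higher and 3 lower. With the first wild-type library left out these were 3 and 3, and with the second left out 2 and 5. Nes, the filament protein nestin that assembles with vimentin, fell to 513 ± 68.9 CPM in the KO, against 886 ± 137 in wild type (log2 fold change -0.79, adjusted p = 0.0014). Dst, a cytolinker, fell by 0.82 and Pak1, a kinase, by 0.62. Lmnb1, a nuclear lamin gene, rose by 0.48 (adjusted p = 0.00206). In the rescue over the KO 3 were higher, Nes, Dst and Pak1, and 1 lower, Synm. Of all tested genes 8.35% were higher and 5.88% lower in that comparison. Of the 12, those called numbered 0 without the second KO library, 1 when the first was left out and 2 without either wild-type library, while without the first rescue library 5 were higher and 0 lower.

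The epithelial regulators were scarce in every group. Grhl2, a grainyhead factor that activates junction genes (ENSMUSG00000022286, chromosome 15, 37233036 to 37363569, 18 exons), had 6 and 10 counts in the rescue, 18 and 6 in the KO and 9 and 7 in wild type. Normalised, these were 0.761 and 1.33 CPM in the rescue, 1.50 and 0.688 CPM in the KO, and 1.07 and 0.684 CPM in wild type, and all groups overlapped. The KO differed from wild type by 0.41 (SE 0.53, adjusted p = 0.554) and the rescue from the KO by -0.14 (SE 0.53, adjusted p = 0.888), so differences of this size were not detectable at this depth. Ovol1, a zinc finger repressor of Zeb1 (ENSMUSG00000024922, chromosome 19, 5549137 to 5560575, minus strand, 4 exons), had 14 and 18 counts in the rescue, 12 and 9 in the KO, and 12 and 10 in wild type. These were 1.78 and 2.40 CPM in the rescue, 1.00 and 1.03 CPM in the KO and 1.42 and 0.977 CPM in wild type. The rescue libraries were the highest, at 1.03 over the KO (SE 0.41, adjusted p = 0.116) and 0.81 over wild type (SE 0.41, adjusted p = 0.182), and neither passed. The antisense gene Gm16136 shares 169 exon bases with Grhl2 and had at most 1 count in a library.

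Esrp1 and Epcam were at the limit of detection. Esrp1, which directs epithelial splicing (ENSMUSG00000040728, chromosome 4, 11331933 to 11386783, minus strand, 17 exons), had 1 count, in the second wild-type library, and 0 in the other libraries, and it shares 127 exon bases with Gm26663 on the opposite strand. Epcam, an epithelial adhesion molecule used to sort tumour cells (ENSMUSG00000045394, chromosome 17, 87635979 to 87651106, 10 exons), had 1 count, in the first wild-type library, and 0 elsewhere. No fold is given for either. Esrp2, the paralogue of Esrp1 with the same splicing role, was expressed, at 20.8 ± 1.49 CPM in the rescue, 18.8 ± 2.39 in the KO and 26.9 ± 2.14 in wild type (SD, n = 2). It fell in the KO by 0.53 (SE 0.13, adjusted p = 0.00716), while the rescue was at 0.15 over the KO (adjusted p = 0.507).

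E-cadherin mRNA was present in every group although Epcam and Esrp1 were at the limit of detection, and the protein was not measured. Cdh1, which encodes E-cadherin, had 141 and 97.6 CPM in the rescue, 176 and 233 CPM in the KO, and 363 and 393 CPM in wild type. The 3 groups did not overlap. Cdh1 fell in the KO by 0.89 (SE 0.16, adjusted p = 7.5e-04). It was lower again in the rescue, at -0.78 over the KO (SE 0.16, adjusted p = 0.0113) and -1.66 over wild type (SE 0.16, adjusted p = 3.0e-05), 3.17-fold. Without the second KO library the difference between rescue and KO did not pass (adjusted p = 0.115). Cdh2, which encodes N-cadherin, had 122 and 126 CPM in the rescue, 104 and 103 CPM in the KO, and 141 and 130 CPM in wild type. It fell in the KO by 0.38 (SE 0.08, adjusted p = 0.00302), and the rescue was at 0.25 over the KO (SE 0.08, adjusted p = 0.0633). Scaled by length, Cdh1 exceeded Cdh2 by an RPKM ratio of 2.04 and 1.36 in the rescue, 2.98 and 3.98 in the KO, and 4.54 and 5.35 in wild type. The ratio was lowest in both rescue libraries, and no groups overlapped. Snai1, a repressor of Cdh1, and Cdh1 itself were both lower in the KO than in wild type. A link between these levels was not tested.

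**Figure D3:**
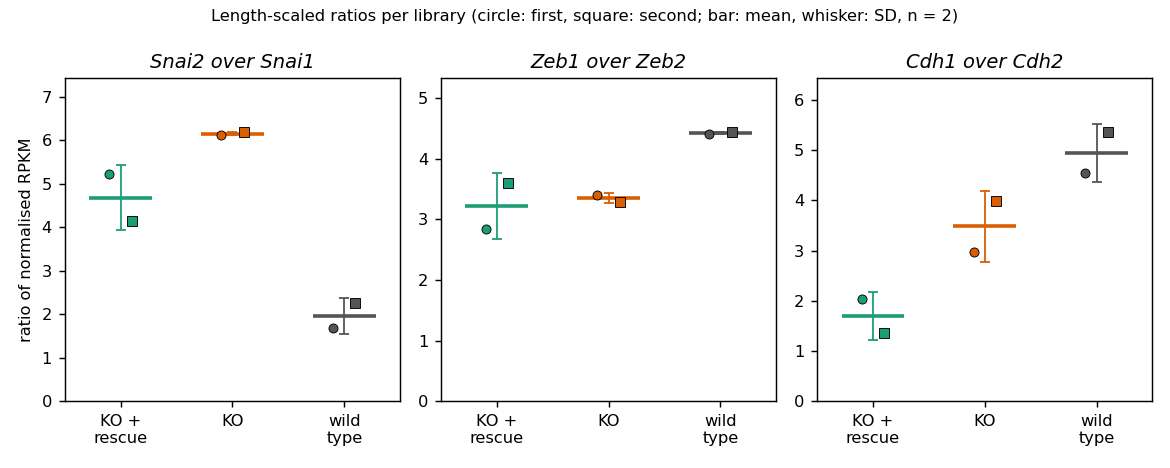
Ratio of normalised RPKM (y axis, starting at 0) of Snai2 to Snai1, Zeb1 to Zeb2 and Cdh1 to Cdh2 in the KO + rescue, KO and wild-type libraries; circles and squares are the first and second library, bars the mean and whiskers the SD with n = 2. Snai2 over Snai1 is 6.13 and 6.19 in the KO against 1.68 and 2.26 in wild type, and Cdh1 over Cdh2 is lowest in the rescue.

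In the lists on both sides of the transition more genes were lower in the KO than higher. Of all tested genes 46.8% were called in the KO against wild type, 23.5% lower and 23.2% higher. Among 11 tested epithelial regulators beside the members, 7 were lower and 0 higher, with a median log2 fold change of -0.53, beside 0.01 over all genes tested. Ehf, an ETS factor of epithelia, was at 7.21 ± 2.57 CPM in the KO and 52.6 ± 3.99 in wild type (log2 fold change -2.83, adjusted p = 9.5e-07). Elf3, another epithelial ETS factor, fell by 1.13, and the Krüppel-like factors Klf5 and Klf4 fell by 0.54 and 0.82. Among 26 tested epithelial structural genes, some of them linked to GRHL2, 15 were lower and 2 higher, with a median of -0.41. Cldn6, a tight junction claudin, was at 0.663 ± 0.127 CPM in the KO and 16.9 ± 1.55 in wild type (adjusted p = 5.8e-07). The simple keratins Krt18 and Krt19 fell by 0.89 and 0.95, and Patj, a polarity scaffold, rose by 0.82. The higher epithelial structural genes numbered 1 without the first wild-type or the second KO library. Pancreatic duct markers, which share the keratins with that list, were lower for 7 of 9 tested and higher for 0, with a median of -0.89, and the osteopontin gene Spp1 fell by 1.66 and the duct factor gene Sox9 by 0.84. Among 23 tested mesenchymal structural genes 10 were lower and 3 higher, with a median of -0.18. Nt5e, which encodes CD73, fell by 3.50 to 0.438 ± 0.0286 CPM in the KO, against 5.04 ± 0.748 in wild type. Fn1, fibronectin, fell by 1.80. Col3a1, a fibrillar collagen gene, rose by 4.32 to 7.63 ± 2.21 CPM in the KO, against 0.395 ± 0.282 in wild type. Of 18 other EMT transcription factors 9 were lower and 3 higher, or 9 and 5 without either rescue library, with a median of -0.17. Id3, an inhibitor of helix-loop-helix factors, rose by 2.04 and the mitotic factor Foxm1 by 0.62, while Id2 fell by 1.11 and the homeobox gene Msx1 by 1.05.

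**Figure D4:**
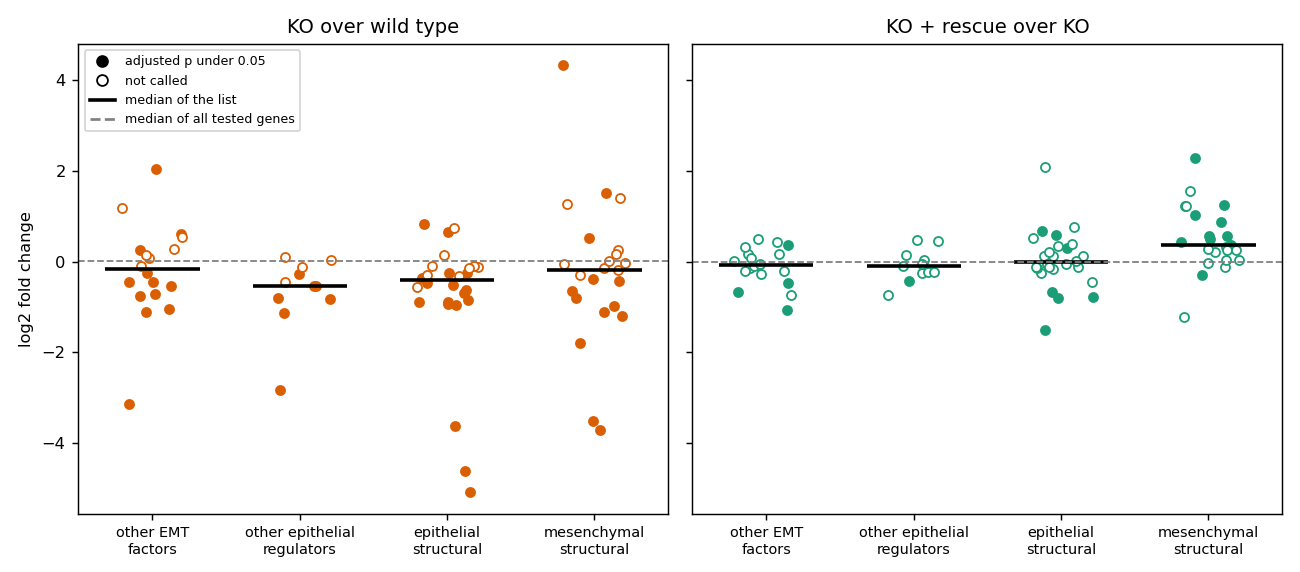
Log2 fold change (y axis) of each tested gene in 4 lists, for KO over wild type (left) and KO + rescue over KO (right); filled points passed an adjusted p of 0.05, thick lines are list medians and the dashed line is the median of all tested genes. On the left the medians run from -0.53 to -0.17, and on the right that of the mesenchymal structural genes is 0.36 while the others lie between -0.11 and -0.02.

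In the rescue over the KO most called mesenchymal genes were higher, while called epithelial genes lay in both directions. Of all tested genes 14.2% were called in that comparison, 8.35% higher and 5.88% lower. A count near these shares, as for the epithelial regulators, is not a result about the list. Of 23 mesenchymal structural genes 10 were higher and 1, S100a4, lower than in the KO, with a median of 0.36. Fn1 rose by 1.23 to 3410 ± 953 CPM in the rescue, against 1452 ± 7.74 in the KO. Col1a1, also a fibroblast marker, rose by 0.87. The lysyl oxidase gene Loxl2 rose by 1.03 and the membrane-cytoskeleton linker gene Msn by 0.49. The higher members numbered 2 without the second KO library, 4 without the second rescue library, and 6 without the first KO or either wild-type library. Of 26 epithelial structural genes 3 were higher (Krt18, Krt8 and the desmosome gene Pkp2) and 4 lower (Cdh1, the tight junction gene Ocln, Muc1 and Crb3), with a median of -0.02. Those called numbered 0 without the second KO library, 2 without the first, 3 without the second rescue library and 4 without either wild-type library, while without the first rescue library 6 were higher and 4 lower. Of 9 duct markers 3 were higher, Sox9 at 0.66 among them, and 2 lower. Of 11 epithelial regulators 0 were higher and 1 lower, or 0 and 0 with either wild-type, the first KO or the second rescue library left out and 1 and 1 without the first rescue library. Of 18 other EMT factors 1, Fosl1, was higher and 3 were lower, Id3 by 1.06, Id2 by 0.68 and Id1 by 0.48, with 1 called in all without the second KO library, 0 higher without the first, and 2 higher without either rescue library. Against wild type the rescue had 11 of 26 epithelial structural genes lower and 1 higher (5 and 1 without either wild-type library) and 5 of 11 epithelial regulators lower and 0 higher (3 lower without either wild-type library). Over all tested genes 12% were lower and 10.2% higher in the rescue than in wild type. Mesenchymal structural genes were 4 lower and 3 higher of 23, not far from those shares and not a result about that list. The higher ones numbered 6 without the first rescue library and 1 without any 1 of the others, and the lower ones 1 and 2 with the first or second wild-type library left out and 7 with the second rescue library left out. Of 18 other EMT factors 6 were lower and 2 higher, or 4 and 1 with the first wild-type library left out and 4 and 2 with the second left out.

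The genes through which SNAI and ZEB factors act, those that turn the proteins over and the splicing factors are given beside the 46.8% of all tested genes called in the KO against wild type, 23.2% higher and 23.5% lower. In that comparison their shares lay around that background, and no count here is taken as a result about these lists. For the rescue over the KO 14.2% of all tested genes were called, 8.35% higher and 5.88% lower. For the rescue against wild type 22.2% were called, 10.2% higher and 12% lower. Of 22 corepressors and chromatin partners 8 were higher and 4 lower in the KO than in wild type, with a median of 0.11, and the lower ones numbered 1 with the first wild-type library left out and 2 with the second or either KO library left out. Parp1 rose by 0.87, the histone methyltransferase gene Suv39h1 by 1.28, the DNA methyltransferase gene Dnmt1 by 0.66 and the corepressor gene Ctbp1 by 0.66. Ctbp2, the paralogue of Ctbp1, fell by 0.50. Of these 22 genes 1 was higher in the rescue than in the KO, Kdm1a at 0.32, the demethylase that SNAIL recruits, and it lost its call without any 1 library other than the first rescue library, without which 3 were higher and 6 lower. Against wild type the rescue had 6 higher and 0 lower, or 2 higher without the first wild-type library, 4 higher without the second, and 4 higher and 1 lower without the first rescue library. Of 23 genes that phosphorylate, ubiquitinate or stabilise SNAI, ZEB and TWIST proteins 3 were higher and 5 lower in the KO, or 2 and 3 with the first wild-type or first KO library left out, 3 and 3 with the second KO library left out and 4 and 8 without either rescue library. Fbxl5 fell by 0.52 and Fbxw11 by 0.50, both substrate receptors of ubiquitin ligases, while the phosphatase gene Ctdsp1 rose by 0.43 and Trim28 by 0.36. In the rescue over the KO Ctdsp1 was lower by a log2 value of -0.35 and Mdm2, a ubiquitin ligase gene, higher by 0.35, and neither was called without any 1 of the KO and second rescue libraries, nor Mdm2 without either wild-type library. Of 17 splicing factors beside ESRP 5 were higher and 3 lower, close to the 46.8% called over all genes, with Mbnl3 at 1.57, Nova1 at 3.20, Mbnl2 at -0.72 and Qk at -0.48. Nova1 had 6 and 8 counts in the wild-type libraries, so its fold rests on few counts. Mbnl2 and Qk were higher in the rescue than in the KO by 0.37 and 0.36. Without the first or the second KO library 0 of the 17 were called, and 1 with either wild-type or the second rescue library left out, while without the first rescue library 3 were higher and 4 lower.

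Genes that followed the members most closely were sought over the 6 libraries, among 9923 genes with a mean of at least 5 CPM. Likeness was the root mean square difference of log2 CPM after each gene was centred on its mean, and all 6 libraries share the group structure that many genes follow. Nearest to Snai1 were Abtb2 at 0.083 and Ddit4 at 0.0977, beside a spread of 0.712 for Snai1 itself. Nearest to Snai2 were Gnb4 at 0.0774 and Gdf15 at 0.0826, beside 0.294. Near to Zeb1 was Ptch1 at 0.0347, beside 0.313. For Zeb2 they were Inpp4a and Ccdc181, and for Vim Lrrc42 and Usp22. For Ovol1 Nyap1 was near. For Grhl2 the nearest were a pseudogene, Rpl14-ps1, and Fam185a, at 0.171 and 0.217 beside a spread of 0.373.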

How the data were processed

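RNA was harvested with Trizol and mRNA taken with oligo-dT, per the labels' protocols. The names listed in the submitters' processing notes are bcl2fastq, STAR 2.0.4b, Subread, featureCounts 1.45 and GRCm38; for strandedness and the annotation used, the sources used here give nothing. For each gene the authors deposited its count, its CPM and its RPKM, and these CPM and RPKM values served only to check the counts. Symbols came from GENCODE M21 for 40254 of 41388 identifiers. Without a stated strand setting, reads of a gene and its antisense partner cannot be told apart.

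Genes were kept by filterByExpr at a minimum count of 10 and a minimum total of 15, leaving 12339, and the deposited counts were scaled by TMM. The quasi-likelihood test of edgeR 4.0.16 (R 4.3.3) used the 6 libraries together, each group having its own mean (3 residual degrees of freedom). Benjamini-Hochberg adjustment ran over all tested genes, with a threshold of 0.05. The same fit was run on simulated counts that gave each gene 1 spread in all groups, so unequal spread was not checked. That fit shares the estimate of spread among the groups. The spread between libraries, as edgeR's common coefficient of variation, was 10.5% in the rescue, 6.08% in the KO and 5.09% in wild type. P-values that involve the rescue may thus be too small, and those of the KO against wild type too large. The SE is the fold change over the square root of F. Normalised CPM and RPKM use the TMM-scaled library size. Alternatives included DESeq2 1.42.0, other scalings and filters, a replicate block and leaving out each library.

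The members, gene lists and tests were chosen with earlier results of these data known. All 10 members were named, and from each other list up to 4 called genes with the smallest adjusted p in the KO against wild type and in the rescue over the KO, with Cdh1 and Cdh2; per member, the 2 genes nearest in pattern were named too. Outside that rule, Twist2, Esrp2, Ctbp2, S100a4, Krt8 and Crb3 were named after their values were seen. Of the listed genes, Eppk1 had no match. Some genes that the rule names are not reported here. Intervals and floors (3 counts) cover counting error only.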

Additional observations from a re-analysis of the deposited data

How the results depend on the processing

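Of 45 named genes called in the KO against wild type, 45 kept their call under another scaling, another filter, a replicate block and a fit of the 2 groups alone, 43 did in DESeq2, which lost Zeb2 and Ocln, and 40 to 45 did with 1 library left out. Of 24 called in the rescue against the KO, 3 kept theirs without the second KO library, Fn1 and Id3 among them, and 0 changed sign in any alternative. Members called lower in the KO numbered 2 to 4 with 1 library left out, against 4 in all. Members called higher in the rescue over the KO numbered 0 to 4 with 1 library left out, against 2, and 4 with no count filter, 1 with DESeq2, 0 with a replicate block and 0 in a fit of the 2 groups alone. Members lower in the rescue than in wild type numbered 0 to 2 with 1 library left out, against 1, and 2 without a filter, and members higher 0 to 1, against 0, and 1 without a filter. Over all genes, leaving out 1 library gave 1688 to 3297 higher in the KO. For the rescue over the KO it gave 139 to 1849 higher and 64 to 1596 lower, with 667 and 377 for the 2 groups alone, 429 lower with a replicate block and 378 lower with DESeq2. For the rescue against wild type it gave 417 to 1699 higher and 691 to 1953 lower, with 751 higher in DESeq2. Signs of uncalled log2 differences turned with 1 library left out for the KO against wild type in Snai2 (-0.32 to 0.17), Grhl2 (-0.33 to 0.79) and Ovol1 (-0.48 to 0.054), for the rescue over the KO in Grhl2 (-0.58 to 0.59), and for the rescue against wild type in Zeb2 (-0.032 to 0.065), Vim (-0.072 to 0.16) and Grhl2 (-0.17 to 0.62). The cause was not tested. Same-numbered libraries did not deviate together (correlations of 0.037 for KO and wild type, -0.153 for rescue and wild type, and -0.192 for rescue and KO), so the number is not taken as a pairing. A fit with 1 library in a group assumes that it varies like the others. Genes near 1 CPM, Grhl2 and Ovol1 among them, are limited by depth.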
